A study of Mus musculus with 24 samples.

Results

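Whether loss of eIF4E3 changes how ribosomes respond to mTOR inhibition was examined through a single term of a model, the genotype by Torin1 interaction of ribosome footprint counts. The interaction is the log2 change of footprints on a coding sequence (CDS) with Torin1 in KO cells minus the same change in ctrl cells, so a negative value means a greater fall or a smaller rise with the drug in KO than in ctrl, and not by itself lower footprints in the KO. It was fitted for 10563 transcripts of the 11219 listed in any of the deposited footprint tables, in 11 of the 24 libraries of the series. The cells were N2a (Neuro-2a), a mouse neuroblastoma line. KO cells carried CRISPR/Cas9 guides against 3 exons of Eif4e3 and were puromycin-selected pools rather than a clone, and ctrl cells, which the labels give as WT, had received the empty Cas9 vector. Each genotype was given 250 nM Torin1 in DMSO, or DMSO alone, for 2 h. Each condition had 3 footprint libraries except ctrl DMSO with 2, whose replicate 2 was not analysed here. A replicate number stands for a passage of the cells and, in the descriptions of the footprint libraries, for a sequencing lane.

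Cap-dependent translation starts when eIF4F, built from a cap-binding eIF4E protein, the scaffold eIF4G and the helicase eIF4A, brings the small ribosomal subunit to the 5′ end of an mRNA. mTOR keeps eIF4E1 free by phosphorylating the 4E-BPs, and Torin1 blocks that kinase, which acts hardest on the TOP mRNAs that encode ribosomal proteins and translation factors. eIF4E3 is a cap-binding relative of eIF4E1 that the 4E-BPs do not hold. Ribosome profiling counts the mRNA pieces that ribosomes shield from nuclease, so that the count on a CDS follows both the amount of the mRNA and the number of ribosomes on it.

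The footprint libraries held 669010 to 5284909 counts, and ctrl DMSO replicate 3 was the shallowest. Across transcripts, which are not independent replicates, Pearson's r of log2(CPM + 1) was 0.954 to 0.986 within a condition. Of 7 markers of sympathoadrenal or neuroendocrine cells, 6 were tested (Phox2a, Hand2, Gata2, Gata3, Insm1 and Chga), at a summed level of 592 to 949 CPM. None of the 8 leukocyte and none of the 8 glial markers were among the transcripts tested, and of 8 fibroblast markers Pdgfra was, at 0 to 7.4 CPM. Among the transcripts listed in RNA-seq were 2 of the leukocyte, 1 of the glial and 3 of the fibroblast markers. Footprints on Eif4e3 came to 22.0 and 17.8 CPM in ctrl DMSO, 20.99, 11.6 and 17.6 in ctrl Torin1, 2.77, 3.76 and 2.78 in KO DMSO and 6.61, 3.35 and 2.29 in KO Torin1. Every KO library lay under every ctrl library, and some footprints remained in the KO pool. The interaction of Eif4e3 itself was 0.76 (standard error 0.53, adjusted p = 0.868 from edgeR).

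Of the 10563 transcripts, 12 (0.114%) passed the threshold of an adjusted p under 0.05, all with a negative interaction, and with Torin1 all 12 had lower footprints in the KO than in ctrl. They encode an amino acid transporter (Slc7a5), a sterol-regulated transcription factor (Srebf2) and proteins of the extracellular matrix (Loxl2 and Fbln2). Nomo1, Emc1, Ganab and Hyou1 encode proteins that insert, fold or trim other proteins in the endoplasmic reticulum (ER). The rest encode the MHC class I heavy chain H2-D1, its loading factor Tapbp, a phosphodiesterase (Gdpd1) and a nucleic acid-binding protein (Ybx1). The interaction of the 12 ran from -1.35 to -0.88 (median -1.11) on the log2 scale, against a median of -0.018 over all transcripts. At an unadjusted p under 0.05 stood 730 transcripts (6.91%), 491 with a negative interaction (4.65%) and 239 with a positive one (2.26%). With the replicate block, which pairs libraries of the same passage and lane, 35 transcripts passed, 32 lower and 3 higher, and all 12 were among them. The calls were sensitive to single libraries. Without KO Torin1 replicate 1, 0 transcripts passed and 638 had an unadjusted p under 0.05. The 12 then had interactions of -1.22 to -0.83 and adjusted p-values of 0.0543 to 0.115 (edgeR, Benjamini-Hochberg). Without KO Torin1 replicate 2, 5 passed. Whether the loss came from the library left out or from having fewer libraries was not tested. Of 22 alternatives, the call passed in 21 for Slc7a5, Loxl2, Fbln2 and Ganab, 20 for Nomo1, 19 for Emc1, Srebf2 and Tapbp, 16 for Hyou1, 15 for Gdpd1, 12 for Ybx1 and 11 for H2-D1. For Gdpd1, DESeq2 gave no adjusted p, and that alternative is counted as not passed. Libraries of a bulk culture give averages, so fewer cells translating an mRNA and fewer ribosomes per mRNA cannot be told apart.

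**Figure D1:**
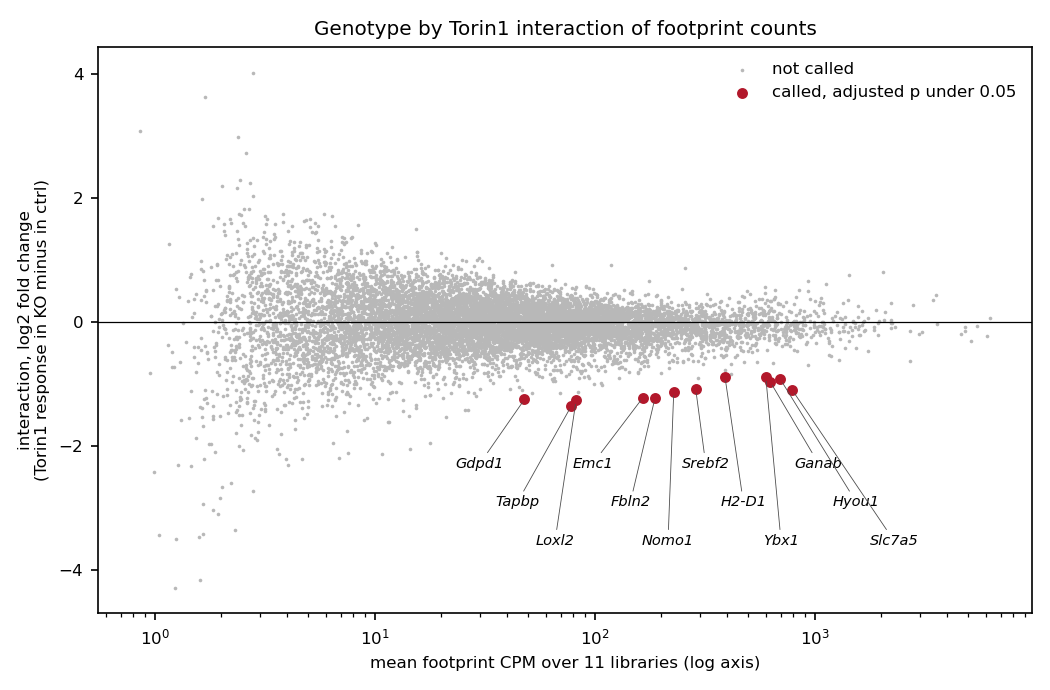
Interaction (log2 fold change, y axis) against mean footprint CPM over 11 libraries (log x axis), 1 point per transcript tested. The 12 called transcripts (red, named) all lie below 0, between -1.35 and -0.88, at mean levels from 47.9 to 791 CPM, while low-count transcripts spread widely around 0 without a call.

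The CDS starts of 11 of these transcripts are shown. Apart from Slc7a5 and from Ybx1, which is not shown, the transcripts hold 5 to 7 codons in 10 with T (U in the mRNA) in the middle position. Such codons encode Phe, Leu, Ile, Met or Val, the hydrophobic residues that make up signal peptides and membrane-spanning segments. From codons 2 to 25, the window of 10 codons with the most such codons is given, in the sense strand from 5′ to 3′, with those codons in capitals. The sequences are those of GENCODE M21 on GRCm38, matched by transcript identifier.
Tapbp, codons 3 to 12: cctCTGCTCCTGCTCGTCgctGTGgcaCTG
H2-D1, codons 4 to 13: ATGgctccgcgcacgCTGCTCCTGCTGCTG
Loxl2, codons 13 to 22: TTGgctCTGCTTGTCTTGCTGccttccCTG
Fbln2, codons 7 to 16: gcaggaGTGtggCTGgccTTGgctCTGGTC
Nomo1, codons 6 to 15: tgtgccgcggcgCTGCTGCTGCTGCTACTG
Emc1, codons 9 to 18: TTCtggATCtgggctgctGTGCTGCTCGTC
Ganab, codons 16 to 25: TTAagtTTGGTGCTGgcatacTTAgggGTC
Hyou1, codons 13 to 22: CTACTCtgttgggccTTGGTGgctGTCCTC
Gdpd1, codons 15 to 24: ggatatTTGGTCacctcgTTCTTGTTGCTT
Srebf2, codons 7 to 16: CTGggcGTTCTGgagaccATGgagaccCTC
Slc7a5, codons 2 to 11: gcgGTCgcgggcgccaagaggcgcgcgGTT
In 8 of the 12 the window held at least 6 codons of this kind, as it did in 14.9% of the 10526 transcripts with a matched CDS. Tapbp and Loxl2 had 7, Slc7a5 had 2 and Ybx1 had 1, the lowest of the 12, and the median over all transcripts was 4. The feature was looked for after the calls were seen, so these counts are a description.

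Slc7a5, the gene of the LAT1 transporter that brings leucine and other large neutral amino acids into the cell, lies on chromosome 8 (GRCm38, minus strand, 121881150 to 121907694). It had 1453 and 1142 CPM in ctrl DMSO, 1346, 1293 and 1403 in KO DMSO, 436, 447 and 505 in ctrl Torin1 and 217, 211 and 244 in KO Torin1. The DMSO groups overlapped, and with Torin1 each KO library lay under each ctrl library. Footprints fell by 1.49 on the log2 scale in ctrl and by 2.59 in KO, which gave an interaction of -1.10 (standard error 0.18, adjusted p = 0.00567 from edgeR). Srebf2, which encodes the ER-bound precursor of SREBP-2, the transcription factor of cholesterol synthesis, lies on chromosome 15 from 82147181 to 82205379. Its levels were 495 and 404 CPM in ctrl DMSO, 388, 377 and 398 in KO DMSO, 281, 238 and 268 in ctrl Torin1 and 94.7, 98.6 and 124 in KO Torin1. KO Torin1 stood apart below all other conditions, and the interaction was -1.08 (standard error 0.19, adjusted p = 0.00567 from edgeR).

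Loxl2, a secreted lysyl oxidase that cross-links collagen and elastin, lies on chromosome 14 from 69609068 to 69695834. It had 82.0 and 81.1 CPM in ctrl DMSO and 80.3, 79.6 and 86.8 in ctrl Torin1, against 114, 111 and 123 in KO DMSO and 41.9, 55.1 and 49.7 in KO Torin1. The log2 change with Torin1 was 0.0097 in ctrl cells (adjusted p = 0.974), in KO cells it fell by 1.25 (adjusted p = 7.29e-09), and the interaction was -1.26 (standard error 0.21, adjusted p = 0.00567, all from edgeR). Here the KO was above ctrl in DMSO without overlap and below it with Torin1. Fbln2, fibulin-2 of the extracellular matrix, lies on chromosome 6 from 91212455 to 91272540. It fell in both genotypes, from 314 and 316 CPM in ctrl DMSO to 119, 84.2 and 98.2 in ctrl Torin1 and from 311, 327 and 359.6 in KO DMSO to 37.9, 50.7 and 46.3 in KO Torin1. The fall was larger in the KO, with an interaction of -1.23 (standard error 0.21, adjusted p = 0.00567 from edgeR).

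Among the ER proteins, Nomo1, a membrane protein that associates with the translocon, lies on chromosome 7 from 46033698 to 46084212. It had 362 and 394 CPM in ctrl DMSO, 407, 408 and 392 in KO DMSO, 124, 128 and 117 in ctrl Torin1 and 48.9, 61.3 and 72.6 in KO Torin1. With Torin1 the genotypes did not overlap, and the interaction was -1.12 (standard error 0.20, adjusted p = 0.00567 from edgeR). Emc1, a subunit of the ER membrane complex that inserts membrane segments, lies on chromosome 4 from 139352587 to 139378730. Its levels were 269.6 and 336 CPM in ctrl DMSO, 243, 274 and 305 in KO DMSO, 76.7, 90.2 and 116 in ctrl Torin1 and 30.4, 41.2 and 41.7 in KO Torin1. The DMSO groups overlapped and the Torin1 groups did not, with an interaction of -1.22 (standard error 0.23, adjusted p = 0.0126 from edgeR).

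Ganab is the catalytic subunit of glucosidase II, which trims glucose from N-glycans, and lies on chromosome 19 from 8898071 to 8916672. It had 764 and 757 CPM in ctrl DMSO, 589.8, 624 and 662 in ctrl Torin1, 781, 793 and 899 in KO DMSO and 296, 363 and 383 in KO Torin1. Its change in ctrl was -0.28 (adjusted p = 0.125), it fell by 1.25 in KO, and the interaction was -0.97 (standard error 0.18, adjusted p = 0.00798, all from edgeR). Hyou1, a large chaperone of the ER lumen related to Hsp70, lies on chromosome 9 from 44379490 to 44392369. Its levels were 835 and 989 CPM in ctrl DMSO, 530.4, 569.6 and 598 in ctrl Torin1, 951, 1062 and 1118 in KO DMSO and 299, 344 and 388 in KO Torin1. Both genotypes fell with the drug and the KO fell further, with an interaction of -0.92 (standard error 0.18, adjusted p = 0.0161 from edgeR).

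For antigen presentation, Tapbp (tapasin), which tethers MHC class I molecules to the peptide transporter, lies on chromosome 17 from 33915899 to 33929292. It had 119.8 and 138 CPM in ctrl DMSO, 111, 94.5 and 112 in KO DMSO, 66.6, 61.1 and 86.8 in ctrl Torin1 and 19.4, 22.5 and 29.2 in KO Torin1. At -1.35 (standard error 0.25, adjusted p = 0.00798 from edgeR) its interaction was the most negative of the 12, and KO was below ctrl without overlap in each treatment. H2-D1, an MHC class I heavy chain on the same chromosome from 35262730 to 35267499, had 474 and 525 CPM in ctrl DMSO, 411, 435 and 449.5 in ctrl Torin1, 506, 492 and 362 in KO DMSO and 217, 221 and 205 in KO Torin1. KO Torin1 lay below all other libraries, with an interaction of -0.88 (standard error 0.19, adjusted p = 0.0448 from edgeR). H2 genes are near-identical in sequence, so that reads may be split among them and their counts are uncertain.

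Gdpd1, a glycerophosphodiester phosphodiesterase on chromosome 11 from 87033867 to 87074062, had 56.6 and 48.7 CPM in ctrl DMSO, 42.7, 49.5 and 35.8 in ctrl Torin1, 66.4, 80.1 and 73.7 in KO DMSO and 21.1, 24.9 and 28.0 in KO Torin1. As with Loxl2, KO was above ctrl in DMSO and below it with Torin1, with no overlap in either, and the interaction was -1.25 (standard error 0.26, adjusted p = 0.0326 from edgeR). Ybx1 encodes YB-1, a cold-shock domain protein that binds DNA and mRNA, on chromosome 4 from 119277981 to 119294604. It had 751 and 984 CPM in ctrl DMSO, 802, 804 and 663 in KO DMSO, 562, 585 and 605 in ctrl Torin1 and 264, 312 and 257 in KO Torin1. The interaction was -0.89 (standard error 0.18, adjusted p = 0.0366 from edgeR).

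All 12 transcripts had KO Torin1 libraries wholly under ctrl Torin1, as 12.9% of all transcripts did, and KO Torin1 wholly under KO DMSO, as 25.1% did. In DMSO the genotypes overlapped in 7 of them, KO was lower in 2 and higher in 3, while over all transcripts it was lower in 12.7% and higher in 13.4%. These contrasts use the libraries that made the calls and describe their shape. For KO against ctrl the log2 difference ranged from -0.26 to 0.51 in DMSO, where 0 of the 12 passed the threshold, and from -1.61 to -0.72 with Torin1, where 12 passed (edgeR). Within replicate 1 alone the interaction of the 12 was -1.62 to -0.89, and within replicate 3 alone it was -1.39 to -0.60, on log2(CPM + 1). Every transcript was negative in each, as were 3082 of all 10563, but these libraries also made the calls, so the signs are no separate support.

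**Figure D2:**
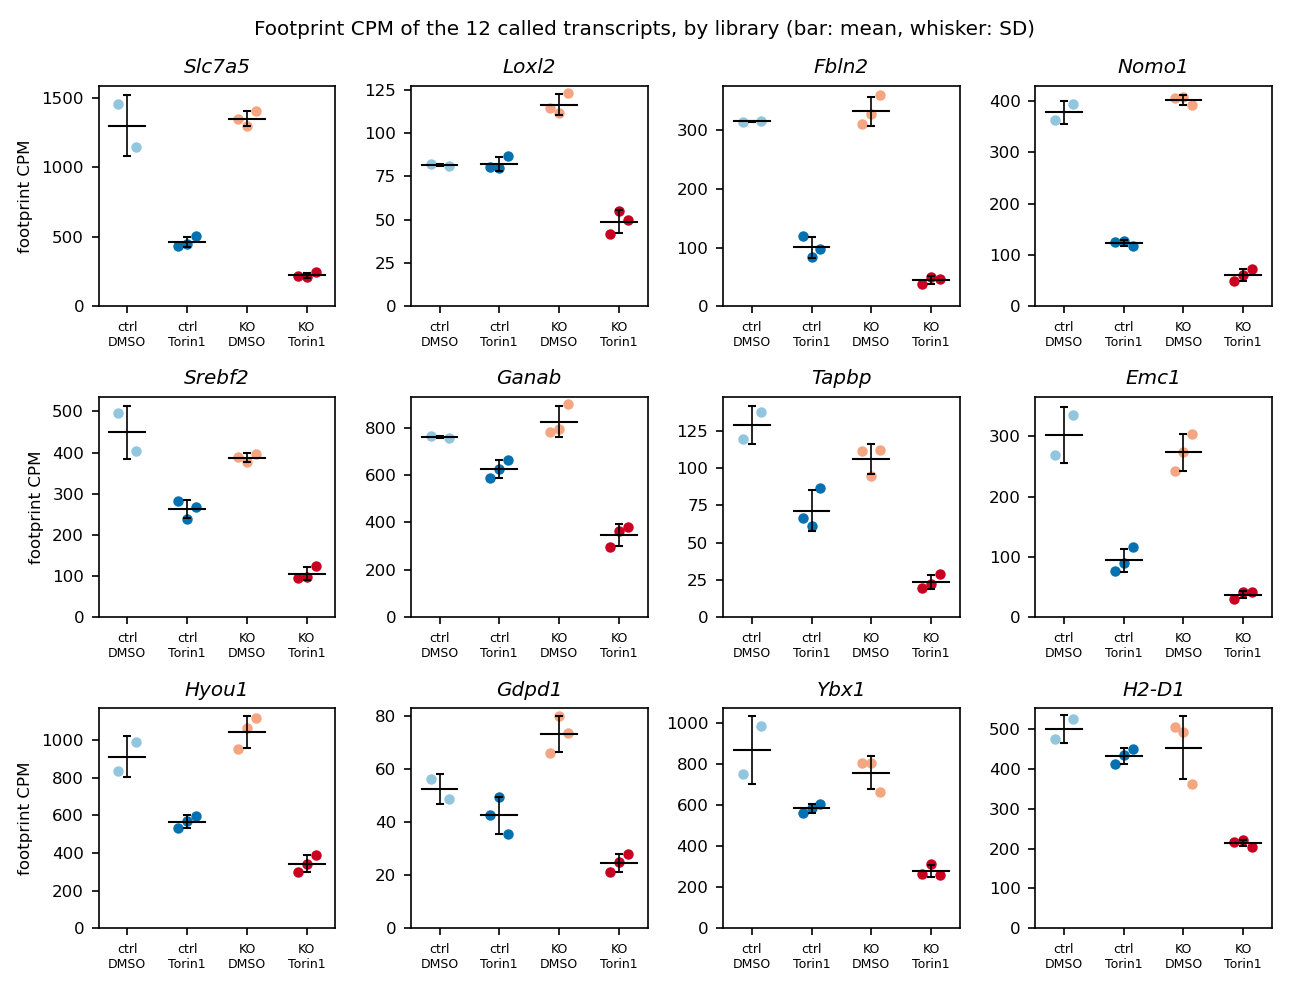
Footprint CPM (y axis, from 0) of the 12 called transcripts in ctrl DMSO (2 libraries), ctrl Torin1, KO DMSO and KO Torin1 (3 each). Points are libraries, bars the mean and whiskers the SD, and KO Torin1 is the lowest group in every panel, as for Slc7a5 at 211 to 244 CPM.

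No transcript passed with a positive interaction. Of the 10 transcripts with the smallest unadjusted p-values on that side, Ier2, which came first, and Junb are immediate early genes that encode nuclear regulators. Ier2 had 73.1 and 87.6 CPM in ctrl DMSO, 130.3, 122 and 141 in ctrl Torin1, 65.2, 62.5 and 51.1 in KO DMSO and 187, 202 and 182 in KO Torin1. KO was below ctrl in DMSO and above it with Torin1, with an interaction of 0.92 (standard error 0.20, adjusted p = 0.0553 from edgeR) that passed with the replicate block (adjusted p = 0.0330). Junb, a subunit of the AP-1 transcription factor, had 83.6 and 139 CPM in ctrl DMSO, 329, 350.3 and 371 in ctrl Torin1, 75.5, 71.5 and 66.0 in KO DMSO and 425, 502 and 407 in KO Torin1. It showed the same crossing, at 0.87 (standard error 0.22, adjusted p = 0.109, and 0.0375 with the block, edgeR). The same libraries ranked these genes, so the crossing only describes them. How many of all transcripts crossed in this way was not counted.

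Histone H4 transcripts made up 3 of the 10 named on the positive side, H4c9 at 0.66 (adjusted p = 0.106, and 0.0375 with the replicate block), H4f16 at 0.76 (adjusted p = 0.107) and Hist1h4n at 0.62 (adjusted p = 0.143, edgeR). H4 genes are near-identical copies that share reads, so they are not separate observations and their counts are uncertain. Sh3bp5l went from 16.5 and 17.8 CPM in ctrl DMSO to 9.41, 14.3 and 13.1 in ctrl Torin1, and from 10.3, 10.9 and 10.1 in KO DMSO to 20.7, 18.7 and 27.4 in KO Torin1. Its interaction was 1.50 (standard error 0.38, adjusted p = 0.109 from edgeR), with a like crossing in the libraries that also ranked it. Daxx, a histone chaperone, had 1.03 (adjusted p = 0.260), Cend1, a neuronal cell cycle exit protein, 0.99 (adjusted p = 0.254) and Rbm4b, an RNA-binding protein, 1.11 (adjusted p = 0.261, all from edgeR). Clmp, an adhesion molecule, was at 0, 0 and 1.7 CPM in ctrl Torin1, too few footprints for a fold change, and had an adjusted p of 0.143 (edgeR).

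Just outside the threshold on the negative side were Slc35a2, the Golgi transporter of UDP-galactose, at -1.42 (adjusted p = 0.0551), Srebf1, the partner of Srebf2 in lipid synthesis, at -0.89 (adjusted p = 0.0553), H2-K1 at -0.84 (adjusted p = 0.0553), Tap1, a subunit of the peptide transporter that Tapbp binds, at -1.54 (adjusted p = 0.0553) and H2-Q7 at -0.94 (adjusted p = 0.0601, all from edgeR). Srebf1 had 410.3 and 309.7 CPM in ctrl DMSO, 267, 274 and 316 in ctrl Torin1, 336, 395 and 434 in KO DMSO and 145, 172 and 172 in KO Torin1, and KO Torin1 lay below all other libraries. It passed with the replicate block (adjusted p = 0.0293), as did Slc35a2, H2-K1 and H2-Q7. Slc35a2, H2-K1, Tap1 and H2-Q7 were named after their values were seen.

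The same term was also fitted in mRNA. In RNA-seq of the 4 conditions in 3 libraries each, 0 of 11073 transcripts passed (edgeR), 108 (0.975%) had an unadjusted p under 0.05, 0.325% on the negative and 0.65% on the positive side, and DESeq2 also called 0, with 94. All 12 called transcripts were tested there, with mRNA interactions of -0.18 to 0.08 and unadjusted p-values of 0.297 or more (edgeR). That fit had no replicate block, although RNA-seq libraries of the same number correlated at up to 0.737 once condition means were removed. These p-values therefore do not show that mRNA was unchanged. For translation efficiency (TE, footprints relative to mRNA), tested as the interaction of assay, genotype and treatment in 1 edgeR model over 10376 transcripts, 0 passed and 591 (5.7%) had an unadjusted p under 0.05, 3.84% on the negative and 1.86% on the positive side. The 12 had TE interactions of -1.26 to -0.77, each with an unadjusted p under 0.05 (lowest 5.95e-05), and the lowest adjusted p was 0.181 (edgeR). On the positive side, Sh3bp5l had a TE interaction of 1.74 with a smaller unadjusted p of 3.79e-05 (adjusted p = 0.181, edgeR). TE and footprints share the footprint libraries, so this is not separate evidence.

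TOP mRNAs, whose translation depends most on mTOR, had lower footprints with Torin1 in both genotypes. Over the 95 transcripts of the small and large ribosomal subunits and the other TOP mRNAs, the median Torin1 response was -1.98 in ctrl cells and -2.05 in KO cells, and the median interaction was -0.082. None passed, 2 had a negative and 1 a positive interaction with an unadjusted p under 0.05, and the medians were -0.13 in replicate 1 and -0.16 in replicate 3. Rplp0, of the ribosomal stalk, went from 1125 and 924 CPM in ctrl DMSO to 199.7, 181 and 185 in ctrl Torin1, and from 990.1, 946 and 937 in KO DMSO to 124, 137 and 145 in KO Torin1. It had an interaction of -0.37 and Rpl18 one of 0.37, with adjusted p-values of 0.683 and 0.678 (edgeR). In mRNA the median interaction of these 95 was 0.21, with 1 at an unadjusted p under 0.05. Their median TE interaction was -0.27, against -0.0088 over all transcripts, with 6 negative and 0 positive at an unadjusted p under 0.05 (edgeR). The eIF4F and 4E-BP list, whose 11 of 13 members tested include the targeted gene, had a median of 0.078 and 0 members at an unadjusted p under 0.05. The 32 mTOR complex members and regulators of 33 stood at 0.097 (-0.010 without ctrl DMSO replicate 1), with Fnip1 at -0.57 and Akt2 at 0.64, or 0.17 without that library (adjusted p = 0.499 and 0.706 with all libraries, edgeR).

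**Figure D3:**
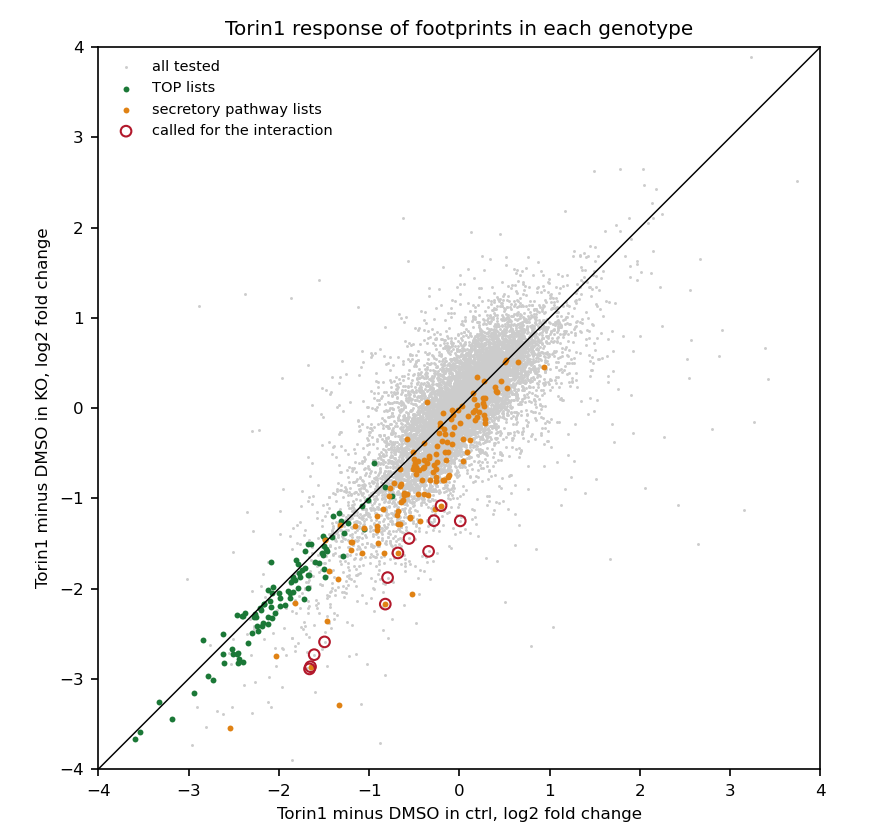
Torin1 minus DMSO in ctrl (x axis) against KO (y axis), log2 fold change of footprints per transcript, with the line of equal response and 1 transcript outside the axes. TOP transcripts (green) lie near the line at a median of -1.98 in ctrl and -2.05 in KO, while the secretory pathway lists (orange) and the 12 called transcripts (circles) lie mostly or wholly below it.

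Transcripts of 6 lists drawn mostly from the secretory pathway had mostly negative interactions. Some listed members are not of that pathway, such as the proteasome subunits Psmb8, Psmb9 and Psmb10 and the regulator Nlrc5 in the MHC class I list. The lysosome list likewise holds the V1 subunits of the V-ATPase. Of the 133 tested in 6 lists (ER translocation and glycosylation, the ER membrane complex, ER chaperones, MHC class I and peptide loading, matrix and integrins, lysosome and V-ATPase), 119 were negative, with a median of -0.27. Negative values were also most of those of all transcripts (52.6%), of the TOP lists (73 of 95), of complex I (30 of 37) and of complexes II to V (31 of 38). Of these 133, 4 passed, 41 had a negative interaction with an unadjusted p under 0.05 (30.8%, against 4.65% of all transcripts) and 0 a positive one. Their median Torin1 response was -0.33 in ctrl cells and -0.64 in KO cells, the medians of replicate 1 and replicate 3 were -0.24 and -0.38, and the mRNA median was 0.015. The median TE interaction was -0.32, against -0.27 for the TOP lists. At an unadjusted p under 0.05 in TE, 30 were negative and 0 positive (edgeR). The lists were put together with earlier results of these data known, so the counts describe them and test nothing.

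The machinery that brings proteins into the ER and glycosylates them had 44 of 44 members tested, 40 of them negative, with a median of -0.26. None passed and 8 had an unadjusted p under 0.05, led by Spcs3 of the signal peptidase at -0.63 (adjusted p = 0.207) and Srprb of the signal recognition particle receptor at -0.68 (adjusted p = 0.226, edgeR). Srprb had 132 and 118 CPM in ctrl DMSO, 87.6, 83.7 and 90.2 in ctrl Torin1, 120.5, 121 and 128 in KO DMSO and 61.2, 46.9 and 49.7 in KO Torin1. In KO Torin1 it lay below all other libraries. Among 10 ER membrane complex subunits 9 were negative (median -0.25), with Emc1 called and Emc10 at -0.52 (adjusted p = 0.538, edgeR). That median was -0.50 without ctrl DMSO replicate 1 and -0.052 without ctrl DMSO replicate 3.

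Of 18 ER chaperones and folding enzymes tested, 14 were negative (median -0.26), Hyou1 passed and 8 had an unadjusted p under 0.05. Calr, the lectin chaperone calreticulin, had 2525 and 3079.7 CPM in ctrl DMSO, 2806, 2785 and 3036 in ctrl Torin1, 3048, 3349 and 3030.4 in KO DMSO and 2140.2, 2153 and 1990.1 in KO Torin1. Its change in ctrl was 0.040 (adjusted p = 0.850), it fell by 0.59 in KO, and the interaction was -0.63 (standard error 0.16, adjusted p = 0.143, all from edgeR). The heat shock list held cytosolic and mitochondrial chaperones, chaperonin subunits and some of their regulators. Its 25 members tested had a median of -0.086, with 0 at an unadjusted p under 0.05. Cct2, of the cytosolic chaperonin, had -0.30 (adjusted p = 0.796, edgeR).

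All 11 MHC class I and peptide loading members tested of 12 were negative, with a median of -0.56. Tapbp and H2-D1 passed and 7 of the 11 had an unadjusted p under 0.05. The median was -0.85 without KO Torin1 replicate 3, and several members are near-identical H2 genes whose counts are uncertain. Of the 15 matrix and integrin genes tested of 29, all 15 were negative with a median of -0.63, 0 passed and 8 had an unadjusted p under 0.05. Lama5, a laminin chain, had 28.5 and 35.7 CPM in ctrl DMSO, 7.24, 10.6 and 17.6 in ctrl Torin1, 30.8, 28.0 and 29.2 in KO DMSO and 1.76, 4.31 and 2.86 in KO Torin1. Its interaction was -1.95 (standard error 0.47, adjusted p = 0.0893) and that of Lamc1, a partner chain, -0.77 (standard error 0.19, adjusted p = 0.104, and 0.0192 with the replicate block, edgeR). The Lama5 value rests on few footprints, 4, 9 and 5 counts in KO Torin1 and 10, 23 and 31 in ctrl Torin1. Lysosomal and V-ATPase transcripts had a median of -0.21, with 30 of 35 negative, and Psap and Cd63 at -0.61 and -0.64 (both adjusted p = 0.143, edgeR), of which Cd63 passed with the block (adjusted p = 0.0450).

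Sterol and fatty acid synthesis genes had 34 of 35 members tested and a median of -0.21, with 26 negative. Srebf2 passed and 9 had a negative interaction with an unadjusted p under 0.05, against 0 positive. The median was -0.34 without ctrl DMSO replicate 1. Proteasome subunits, cytosolic proteins that are no part of the secretory pathway, had 32 of 36 negative, a median of -0.19 and 5 at an unadjusted p under 0.05. Psme4, a proteasome activator, had -0.62 and Psmd2, of the regulatory particle, -0.48 (adjusted p = 0.217 and 0.357, edgeR). The proteasome median was -0.0086 in replicate 1 and -0.35 in replicate 3.

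In energy metabolism, complex I of the respiratory chain had a median of -0.11, complexes II to V -0.13 and the TCA cycle with glycolysis -0.13, each with 0 calls. Ndufb8 of complex I went from 482 and 376 CPM in ctrl DMSO to 376, 372 and 272 in ctrl Torin1, and from 397, 341 and 330.5 in KO DMSO to 182, 191 and 187 in KO Torin1, an interaction of -0.57 (standard error 0.20, adjusted p = 0.388 from edgeR). Without ctrl DMSO replicate 1, which leaves the shallowest library alone in its group, the medians were -0.37 for complex I and -0.37 for complexes II to V, and without ctrl DMSO replicate 3 they were -0.0067 and 0.021. The 77 mitochondrial ribosomal proteins had a median of 0.012, -0.28 without ctrl DMSO replicate 1 and 0.084 without ctrl DMSO replicate 3. SLC25 carriers of the inner mitochondrial membrane stood at -0.013, with Slc25a10, the dicarboxylate carrier, at -1.17 (adjusted p = 0.272) and Slc25a30 at 1.12 (adjusted p = 0.673, edgeR). Slc25a30 had few footprints with Torin1, 4, 5 and 6 counts in ctrl and 10, 7 and 12 in KO.

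Of the 14 catecholamine genes tested of 20, 10 were negative (median -0.18), and Slc18a2, the vesicular monoamine transporter, had -0.60 (adjusted p = 0.472, edgeR). Without ctrl DMSO replicate 1 that median was -0.30. The 12 sympathoadrenal identity factors had a median of 0.024, with Tbx2 at 0.64 and Lmo1 at 0.52, or 0.28 without that library (adjusted p = 0.668 and 0.705 with all libraries, edgeR). Targets of ATF4, the transcription factor of the amino acid response, went both ways around a median of 0.0080, with Slc7a5 called and Ddit3, another stress transcription factor, at 0.80 (adjusted p = 0.568, edgeR). Aminoacyl-tRNA synthetases stood at -0.043, with 16 of 20 negative. Kars, for lysine, had -0.67 (adjusted p = 0.110, and 0.0458 with the replicate block) and Vars, for valine, -0.67 (adjusted p = 0.264, edgeR).

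The most positive medians were those of the immediate early and Zfp genes. Immediate early genes, 22 tested of 33, had a median of 0.24, with 6 negative, 0 calls and 3 positive at an unadjusted p under 0.05, but the median was 0.012 without ctrl DMSO replicate 1. Among the 290 Zfp zinc finger transcripts the median was 0.15 (0.20 in replicate 1 and 0.20 in replicate 3). Of these, 7 had a positive interaction with an unadjusted p under 0.05, or 2.41%, close to the 2.26% of all transcripts. The median was 0.077 without ctrl DMSO replicate 3, and Zfp771 had 1.14 (adjusted p = 0.499, edgeR). FoxO targets had a median of 0.042, -0.10 without KO DMSO replicate 2 and 0.19 without ctrl DMSO replicate 1. Txnip, a thioredoxin-binding protein, rose with Torin1 from 23.0 and 17.8 CPM to 86.8, 87.0 and 95.9 in ctrl and from 22.9, 22.2 and 22.9 to 151, 143 and 132 in KO, an interaction of 0.62 (standard error 0.24, adjusted p = 0.542 from edgeR) that was 0.32 without ctrl DMSO replicate 1. Nucleolar ribosome biogenesis (0.028, with Bop1 at -0.51, adjusted p = 0.471) and mitosis (0.029, with Spc25 at -0.61, adjusted p = 0.510, edgeR) stayed near the median of all transcripts. The mitosis median was 0.24 in replicate 1 and -0.080 in replicate 3.

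**Figure D4:**
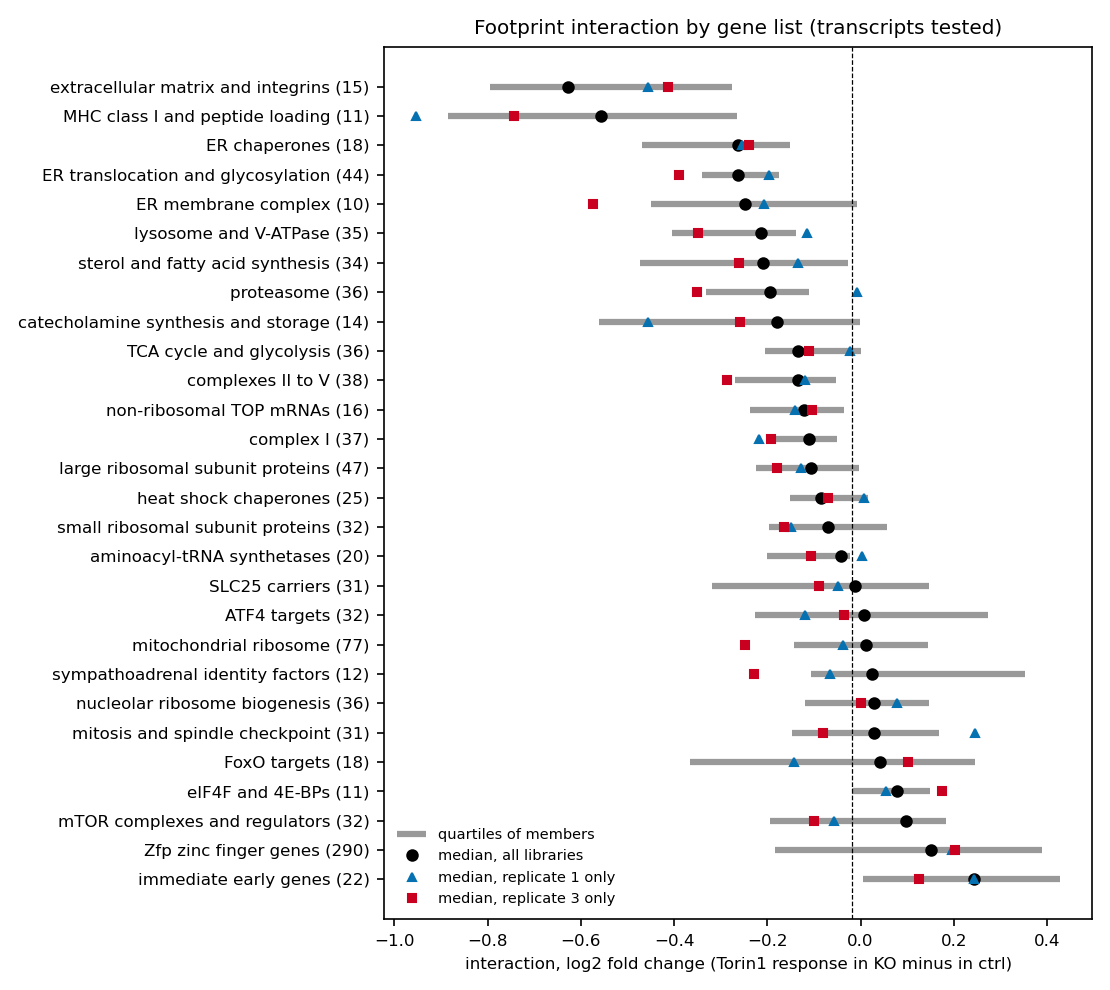
Median interaction (x axis, log2 fold change) of each list with at least 10 transcripts tested (y axis, number tested in brackets). Grey bars span the quartiles of the members, black points use all libraries, and blue triangles and red squares use replicate 1 or replicate 3 alone. Matrix and integrins (-0.63) and MHC class I (-0.56) lie farthest to the left of the dashed median of all transcripts (-0.018).

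Across all 10526 transcripts with a matched CDS, the median interaction was lower where the CDS held more codons with U in the middle. By the window near the start, the median was 0.014 with 0 to 2 such codons in 10 (2129 transcripts), -0.0040 with 3 or 4 (4883), -0.047 with 5 or 6 (2779) and -0.17 with 7 to 10 (735). Replicate 1 gave -0.21 and replicate 3 gave -0.19 for the last group. Of those 735 transcripts, 12.5% had a negative interaction with an unadjusted p under 0.05 and 0.816% a positive one, and the mRNA median was 0.0035. The negative shares did not rise in order, at 4.37% with 0 to 2 such codons, 2.95% with 3 or 4 and 5.79% with 5 or 6. The positive shares were 3.62%, 2.15% and 1.76%. By the richest window of 20 codons past codon 30, the median ran from 0.030 with up to 9 such codons (4073 transcripts) to -0.20 with 14 or more (762), where 15.1% had a negative interaction with an unadjusted p under 0.05. The mRNA median also fell, from 0.017 with up to 9 to -0.031 with 14 or more, and the median CDS lengths were 1029 and 1512 nt. Both codon counts were chosen after the calls were seen, transcripts of a bin share their libraries, and the quartiles of the bins overlap widely.

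Transcript leaders were compared because the study concerned leader length. The median interaction was -0.068 in the quartile with leaders of up to 94 nt, -0.040 from 95 to 172 nt, 0.00048 from 173 to 297 nt and 0.028 from 298 nt up. In mRNA the same quartiles had medians of 0.029, 0.0013, -0.024 and -0.041, in the reverse order. Among the 12 called transcripts the leader was 10 nt (Emc1) to 459 nt (Fbln2) with a median of 178 nt, against 172 nt over all transcripts. By quartile of CDS length the footprint medians lay between -0.037 and -0.00068, while those of mRNA ran from 0.085 for the shortest to -0.11 for the longest.

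**Figure D5:**
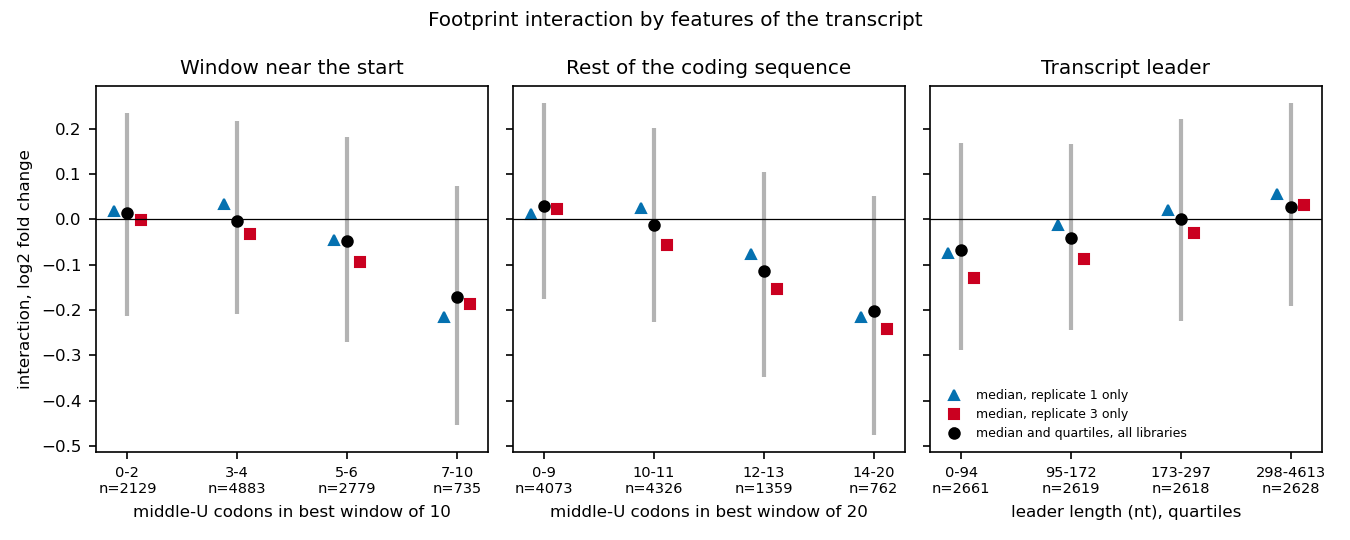
Median footprint interaction (y axis, log2 fold change, grey bars are quartiles) by the number of middle-U codons near the start (left), in the rest of the CDS (centre) and by leader length (right), with the number of transcripts under each bin. Black points use all libraries, and triangles and squares replicate 1 or 3 alone; the lowest medians, -0.17 and -0.20, are in the bins richest in such codons.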

How the data were processed

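The authors trimmed footprint reads with cutadapt, aligned all reads by HISAT2 against mm10, then by Bowtie2 against canonical transcripts of Ensembl, and deposited raw counts per CDS, 1 table per comparison (P-sites for footprints, overlapping reads for RNA-seq). The fold changes, p-values, FDR and TE that the authors also deposited were not used. Footprint columns were merged over the 10568 transcripts present in all 4 footprint tables, where 0 values differed between tables, and 0 per-sample columns of the tables used were left unmapped. The RNA-seq counts came from the tables of Torin1 against DMSO.

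Transcripts that exceeded 1 CPM in every library of some condition were fitted with edgeR 4.0.16 (R 4.3.3; TMM, quasi-likelihood F-test) on genotype, treatment and their interaction, with Benjamini-Hochberg adjustment over all transcripts and a threshold of 0.05. Standard errors are the log2 fold change divided by the root of F. CPM values are TMM-scaled. The fit was tested on simulated data. Depth was 669010 to 5284909 footprints and 17048192 to 28911595 reads per library, and ctrl DMSO rests on 2 libraries.

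Samples were grouped by their labels. Genes named are Eif4e3, up to 10 transcripts per direction with at least 10 mean counts (those called with the largest change, then by p) and the 2 with the smallest p in each of 31 lists. Ybx1 was called but falls outside this rule. Members and lists were chosen with earlier results of these data known. Replicate numbers mark passages, per the labels, which pair libraries. After condition means were removed, r was -0.0386 to 0.144 between footprint libraries of the same number and -0.144 to 0.123 between others. Between RNA-seq libraries it was -0.0423 to 0.737 for the same number and -0.589 to 0.431 for others. Alternatives were the replicate block, DESeq2 1.42.0, edgeR's likelihood ratio test, limma-voom 3.58.1 with quality weights, RLE scaling, library size only, 2 other filters, leaving out ribosomal protein transcripts, and leaving out each library. Leader and CDS features came from GENCODE M21, for 10526 of 10563 transcripts. 1 cell type marker and the sequence window of 1 called transcript are not reported here.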

Additional observations from a re-analysis of the deposited data

Results flagged for a closer look

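The Torin1 response of footprints differed between KO and ctrl, by the interaction term itself (edgeR's quasi-likelihood test, adjusted p under 0.05), for 12 transcripts. The log2 interaction was -1.35 for Tapbp, -1.26 for Loxl2, -1.25 for Gdpd1, -1.23 for Fbln2, -1.22 for Emc1, -1.12 for Nomo1, -1.10 for Slc7a5, -1.08 for Srebf2, -0.97 for Ganab, -0.92 for Hyou1, -0.89 for Ybx1 and -0.88 for H2-D1. All 12 lost the threshold without KO Torin1 replicate 1.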

How the results depend on the processing

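Against 12 footprint calls, the replicate block gave 35, DESeq2 39, edgeR's likelihood ratio test 42 and limma-voom 20, and replicates 1 and 3 alone with the replicate block, an alternative added after seeing the data, gave 6. All 12 were among the calls of each of these except DESeq2 (11, without Gdpd1, to which it gave no adjusted p) and replicates 1 and 3 alone (6). Leaving out 1 library gave 0 to 50 calls, with 0 without KO Torin1 replicate 1, 5 without KO Torin1 replicate 2, 7 without ctrl Torin1 replicate 3, 21 without ctrl DMSO replicate 3 and 50 (13 of them higher) without ctrl DMSO replicate 1. Scaling by RLE (14) or library size only (11), the other filters (12 and 12), the 2 tables of Torin1 against DMSO alone (12) and removal of ribosomal protein transcripts (15) stayed within 1.5 times. None of the 12 changed sign in any of 22 alternatives.

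RNA-seq gave 0 calls in every alternative, and TE gave 0 except 2 (Nomo1 and Slc7a5) without RNA-seq ctrl DMSO replicate 1 (range 0 to 2); the replicate block gave 0 for both. Leaving out 1 library took Rps15 from -0.77 (without ctrl DMSO replicate 1) to 0.028 (without ctrl DMSO replicate 3), a reversed sign. The MHC class I median was -0.70 with a CPM filter of 5. With replicates 1 and 3 and the block, the medians were -0.077 for the mitochondrial ribosome, -0.058 for mTOR complexes and 0.22 for Zfp genes. Leaving out 1 library moved list medians over these ranges: MHC class I -0.85 to -0.53, FoxO targets -0.10 to 0.19, complex I -0.37 to -0.0067, complexes II to V -0.37 to 0.021, mitochondrial ribosome -0.28 to 0.084, immediate early genes 0.012 to 0.35, sterol synthesis -0.34 to -0.16, ER membrane complex -0.50 to -0.052, catecholamine genes -0.30 to -0.10 and Zfp genes 0.077 to 0.16. For Pdgfra, the only fibroblast marker tested, they were -6.72 to -0.44, with 0 counts in ctrl DMSO replicate 3. In the other 618 comparisons of a list median with an alternative, it moved by less than the spread between libraries. Of 59 transcripts named but not called, 14 moved by over 1.5 times without ctrl DMSO replicate 1, 7 without ctrl DMSO replicate 3 and 0 or 1 without any other library. The cause was not tested in any of these.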
